A study of Mus musculus with 4 samples.

Results

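Collagens are the proteins of the triple helix, and their genes were taken here as all symbols made of "Col", a type number, "a" and a chain number. This rule found 44 genes among the 24322 symbols of each file, and all 44 matched a gene of GENCODE vM21 and of RefSeq by symbol. The libraries are RNA-seq of mTFP-positive cells, a fluorescent label switched on by Cre, sorted by FACS from the papain-dissociated retinas of 4 mice, with 1 library per mouse. All 4 mice carried *Rlbp1-CreERT2*, whose Cre is driven by a 3.1 kb *Rlbp1* promoter that is active in Müller glial cells and to some extent in the retinal pigment epithelium, and the reporter *R26-CAG-LoxP-mTFP1*. All were given tamoxifen at postnatal day 4 and harvested at postnatal day 14. The controls were Raxflox/WT (mice 7984 and 3911) and so carried 1 floxed *Rax* allele under the same Cre, and the *Rax* iCKO mice were Raxflox/flox (mice 7983 and 3914). The labels name the strain 129S6 for every mouse. The comparison asks how the collagen genes of these cells stood when *Rax*, a homeobox transcription factor of retinal progenitors and Müller glia, was deleted.

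Müller glia span the retina, and their endfeet meet the vitreous at the inner limiting membrane, a basement membrane. Collagens of this tissue fall into several kinds. Types II, IX and V/XI build the thin fibrils of the vitreous gel, where type II makes the fibril, type IX coats it and a V/XI hybrid sits in its core. Type IV chains form the sheet-like network of basement membranes, and type XVIII is a heparan sulfate proteoglycan attached to it. Other classes are the fibrillar collagens of connective tissue, the beaded filaments of type VI, the fibril-associated collagens with interrupted helices (FACIT), and the transmembrane collagens.

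What the 44 genes share in sequence is the repeat that folds into the helix, in which a glycine leads each triplet of residues. Stretches of the coding sequence of 4 genes on which the results turn are shown to make this repeat visible, read 5′ to 3′ from the GENCODE transcripts, with the glycine codons (GGN) in capitals.
*Col9a1*, codons 418 to 435: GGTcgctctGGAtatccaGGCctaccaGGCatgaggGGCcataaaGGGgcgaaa
*Col2a1*, codons 201 to 218: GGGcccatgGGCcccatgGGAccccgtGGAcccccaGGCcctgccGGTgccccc
*Col4a1*, codons 43 to 60: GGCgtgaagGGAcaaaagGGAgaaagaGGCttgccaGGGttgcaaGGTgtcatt
*Col23a1*, codons 110 to 127: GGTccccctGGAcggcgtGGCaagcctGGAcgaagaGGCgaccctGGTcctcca
All 44 genes held an unbroken run of at least 10 such codon triplets, against 98 of the 21951 coding genes read (0.446%). The longest run was 339 triplets in *Col2a1* and in *Col1a2*, 113 in each of the 3 type IX genes, 43 in *Col23a1*, 40 in *Col4a1* and 30 in *Col18a1*. The long runs belong to the fibrillar chains, and the short ones to chains whose helix is interrupted.

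Levels are FPKM, that is reads scaled to the length of a gene's exons and to the mapped reads of its library, so levels of different genes can be compared per length. A collagen gene was tested where its mean FPKM over the 4 libraries was at least 1, which 19 of the 44 reached. Of the other 25, 22 had a mean over 0, 12 had a mean under 0.1, and 3 (*Col15a1*, *Col28a1* and *Col6a4*) were listed at 0 in every library. Tested genes by class were 5 of 6 vitreous, 4 of 8 basement membrane, 2 of 4 transmembrane, 2 of 8 other fibrillar, 2 of 6 beaded filament, 3 of 6 other FACIT and 1 of 6 remaining collagens.

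*Rax* itself was at 189.1 and 181.4 FPKM in controls 7984 and 3911 and at 111.4 and 98.4 in mice 7983 and 3914, the *Rax* iCKO mice, in the direction of the labels. *Xist*, the RNA of the inactive X chromosome, was at 24.5 and 21.2 in the controls and at 0.0120 and 0.00605 in the *Rax* iCKO mice, while the Y-linked *Ddx3y* and *Eif2s3y* were at 12.4 and 43.7 in mouse 7983 and listed at 0 in the other 3 libraries. The *Xist* difference and the genotype cannot be told apart. Total FPKM ranged from 492728 to 616277, and between 7870 and 8720 symbols were listed at 0. From the read steps of low genes, the library of mouse 7984 held 1.35 times the reads of that of mouse 7983, and the others 0.983 and 0.987 times. All 8 Müller glial markers passed the filter (*Rlbp1* 1292 to 2616 FPKM, *Glul* 1002 to 1702), so RNA of the labelled cell type was present. Fewer cells of a type and less RNA per cell cannot be told apart in such bulk libraries.

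Collagen RNA was mostly *Col9a1*. The 44 genes summed to 1274 and 935 FPKM in controls 7984 and 3911 and to 943 and 672.5 in mice 7983 and 3914, the *Rax* iCKO mice. *Col9a1* made up 56.3% and 69.1% of this in the controls and 55.6% and 64.3% in the *Rax* iCKO mice, and the 6 vitreous genes together 79.6%, 86.8%, 77.1% and 81.3% in the same order. All collagens together were 0.240% and 0.152% of the FPKM of the controls and 0.192% and 0.123% of that of the *Rax* iCKO mice. The 2 groups overlapped in both measures.

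None of the 19 genes passed the test. Limma, run on log2(FPKM + 1) for the 12363 symbols past this limit, gave each of them an adjusted p of 1, and it called 0 of 19 at an unadjusted p under 0.05, where the smallest limma p was 0.0867 (*Col6a1*). Over all genes tested, 0.0243% passed the adjusted threshold (0.00809% higher and 0.0162% lower) and 2.86% the unadjusted one (1.26% higher and 1.6% lower). The study's own kind of rule, group means more than 2 times apart with an equal-variance test on FPKM, called 0.537% of 17865 genes higher and 1.02% lower, and of the 41 collagens with a mean over 0 it called 0 higher and 1 lower (*Col10a1*, described with the low genes). The rule as run here does not give the study's own list, since it did not call *Col7a1*, which the study's heat map shows. With 2 libraries a group, the smallest two-sided exact permutation p for any single gene is 0.333. Fold changes below are on the log2(FPKM + 1) scale, *Rax* iCKO minus control, with the standard error of limma, and they understate the change of low genes.

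The median log2 fold change of the 19 genes was -0.09, beside -0.00 over all genes tested, with 8 above and 11 below 0. Both *Rax* iCKO libraries lay above both controls for 3 of the 19 (*Col1a2*, *Col6a1* and *Col20a1*), where 15.4% of all genes did, and below both for 1 (*Col9a1*), where 14.1% did. *Col20a1* reached the limit of testing only through *Rax* iCKO mouse 7983, being under 1 FPKM in the other libraries. With single libraries left out, the median of the 19 ran from -0.39 to 0.22. The vitreous median was -0.52 (-0.78 to -0.21 with single libraries left out), that of the other fibrillar collagens 0.23 (0.0397 to 0.42), that of the beaded filament pair 0.34 (0.19 to 0.49) and that of the basement membrane collagens -0.00 (-0.42 to 0.39). No difference between classes was tested. In the same fits the fold changes of 13 of the 19 genes turned their sign at least once, and those of *Col9a1*, *Col2a1*, *Col9a2*, *Col1a2*, *Col6a1* and *Col20a1* did not.

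The mice carry neighbouring numbers, 7983 with 7984 and 3911 with 3914, each pair holding both genotypes, and the labels do not say what the numbers mark. Many collagens stood apart between these runs. Both mice 7983 and 7984 lay above both mice 3911 and 3914 for 13 of the 19 genes, where 26.8% of all genes did, and below for 0, where 29.1% did. The median difference between the runs was 0.56 on the log2(FPKM + 1) scale, beside -0.01 over all genes tested. The deepest library, mouse 7984, was in the higher run, and the part of depth was not tested. Values within each pair are therefore given beside the comparison of genotypes. In these, 8 of the 19 genes were lower in the *Rax* iCKO mouse of both pairs (31.7% of all genes) and 6 were higher in both (30.7%).

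**Figure D1:**
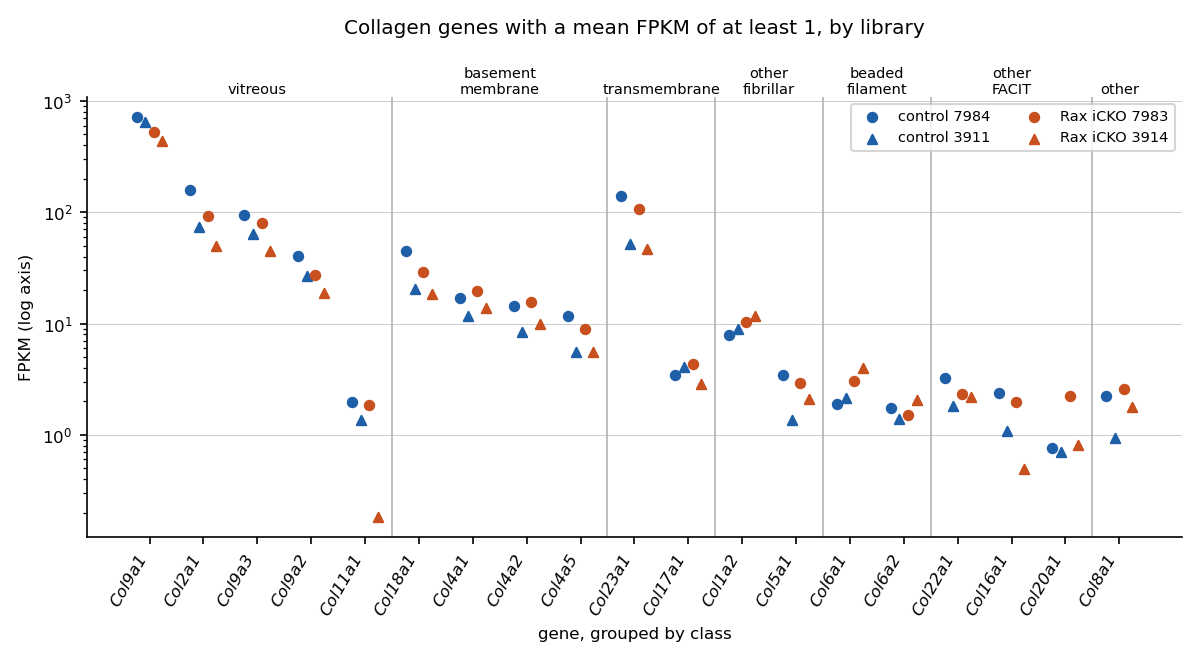
FPKM of the 19 collagen genes that reached a mean of 1 (log axis), with genes grouped by class. Each point is a library, blue for control and orange for *Rax* iCKO, circles for mice 7983 and 7984 and triangles for mice 3911 and 3914. *Col9a1* stands above all others in every library, and for 13 genes both circles lie above both triangles.

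Vitreous collagens were the one class with every tested gene lower in the *Rax* iCKO mouse of both pairs (5 of 5, beside 31.7% of all genes), although none passed the test. Their summed FPKM was 1013 and 811 in controls 7984 and 3911 and 727 and 547 in mice 7983 and 3914, the *Rax* iCKO mice, or 912 ± 143 against 637 ± 128 (SD, n = 2 each). The *Rax* iCKO to control ratio was 0.698, with 0.717 within the first pair and 0.674 within the second. Over all genes tested, the ratio of summed FPKM was 0.909. With any single library left out, the vitreous ratio lay between 0.599 and 0.797.

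*Col9a1*, the α1 chain of type IX collagen, ranked 107 of all symbols by mean FPKM. It lies at chromosome 1:24177610-24252684 on the plus strand (GRCm38). Its level was 717 FPKM in control 7984, 646 in control 3911, 524 in *Rax* iCKO 7983 and 432 in *Rax* iCKO 3914. Its values in the *Rax* iCKO mice were lower than either control, the only tested collagen for which this held. The ratio of means (682 ± 50.4 against 478 ± 65.2, SD, n = 2 each) was 0.702. Limma gave a log2 fold change of -0.52 (SE 0.28, 95% interval -1.21 to 0.18), so it did not pass the test. The differences within pairs were -0.45 and -0.58. With quantile normalization the fold change was -0.28.

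*Col2a1* (chromosome 15:97975602-98004695, minus strand), which encodes the main fibril chain of vitreous and cartilage, was at 158 and 73.1 FPKM in the controls and at 92.7 and 50.1 in the *Rax* iCKO mice. The groups overlapped, with control 3911 below *Rax* iCKO 7983. The log2 fold change by limma was -0.65 (SE 0.45, 95% interval -1.75 to 0.45), and the differences within pairs were -0.77 and -0.53. The ratio of means was 0.617. The fold change was -0.0977 without control 7984 and -1.20 without control 3911.

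*Col9a2* and *Col9a3* encode the other 2 chains of type IX collagen, which is built of 1 chain of each kind. *Col9a2* (chromosome 4:121039385-121055322) was at 40.5 and 26.6 FPKM in the controls and 27.5 and 18.8 in the *Rax* iCKO mice. *Col9a3* (chromosome 2:180597790-180622189) was at 94.6 and 63.5 in the controls and 80.3 and 44.8 in the *Rax* iCKO mice, and its exons overlap *Tcfl5* on the other strand, so some of its reads are uncertain. The groups overlapped for both genes. Limma gave log2 fold changes of -0.51 (SE 0.30, 95% interval -1.24 to 0.22) for *Col9a2* and -0.36 (SE 0.35, 95% interval -1.21 to 0.49) for *Col9a3*. The fold change of *Col9a2* was -0.22 without control 7984 and -0.81 without control 3911. Within pairs the differences were -0.54 and -0.49 for *Col9a2* and -0.23 and -0.49 for *Col9a3*.

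The 3 type IX genes were far from equal in level. *Col9a1* exceeded *Col9a3* 7.58 and 10.2 times in the controls and 6.53 and 9.65 times in the *Rax* iCKO mice, and *Col9a2* 17.7 and 24.3 times against 19.1 and 23.0 times. The ratios of the groups overlapped, and in both genotypes they were higher in the run of mice 3911 and 3914.

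*Col11a1*, a core chain of the vitreous fibril, was near the limit of testing at 1.95 and 1.37 FPKM in the controls and 1.84 and 0.182 in the *Rax* iCKO mice. Its log2 fold change of -0.53 (SE 0.47, 95% interval -1.68 to 0.62) rested on *Rax* iCKO mouse 3914. The difference was -0.06 on that scale within the first pair, whereas the FPKM ratio within the second was 0.133, and without mouse 3914 the fold change was 0.10. With a pseudocount of 0.1 the fold change was -1.23. *Col5a2*, its partner in the hybrid fibril, was under the limit at 0.673 and 0.503 in the controls and 0.347 and 0.535 in the *Rax* iCKO mice, where the pairs went opposite ways.

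**Figure D2:**
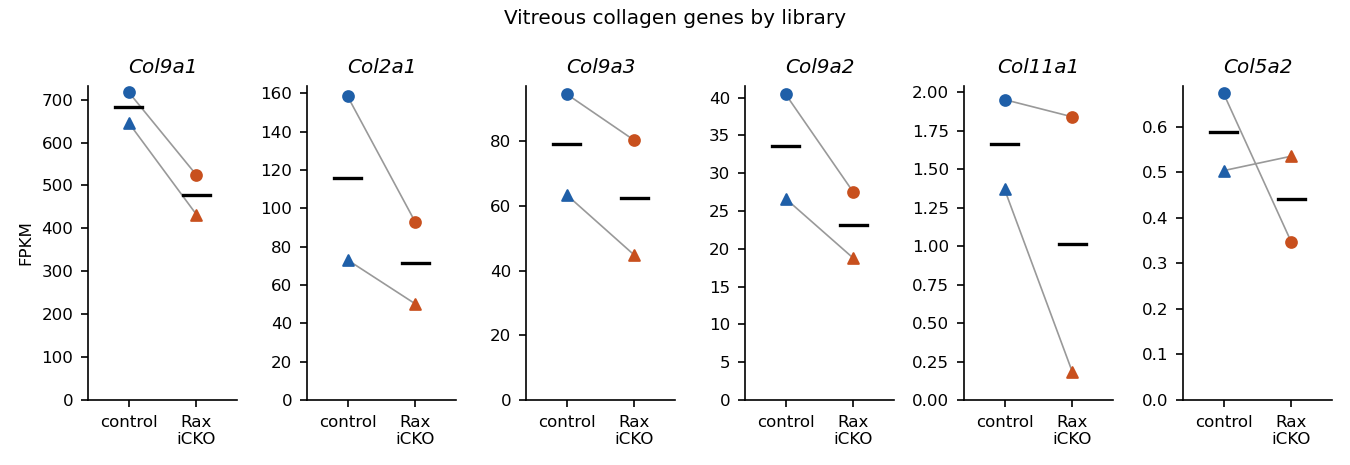
FPKM of the 6 vitreous collagen genes (linear axes from 0, a scale for each gene) in control and *Rax* iCKO libraries. Circles are mice 7983 and 7984, triangles mice 3911 and 3914, grey lines join neighbouring mouse numbers and black bars are means of 2 libraries. All lines slope down except that of mice 3911 and 3914 for *Col5a2*, and for *Col9a1* alone both *Rax* iCKO points lie below both controls.

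Marker lists were read beside the vitreous genes. Summed FPKM of the 8 Müller glial markers was 7807 and 5701 in the controls and 4858 and 4750 in the *Rax* iCKO mice (ratio 0.711, 7 of 8 below 0 in log2 fold change, 0 of 8 at a limma p under 0.05). The 5 rod markers summed to 1312 and 1287 in the controls and 870 and 761 in the *Rax* iCKO mice (ratio 0.628, 5 of 5 below 0, 2 of 5 at a limma p under 0.05). Of the markers of neighbouring eye tissues, those of lens summed to 4.21 to 7.29 FPKM (ratio 0.729), of which *Bfsp2* made 3.71 to 6.61 and *Lim2* was at 0 in every library, and those of pigment and ciliary epithelium to 5.44 to 10.3 (ratio 0.992, 1 of 2 tested at a limma p under 0.05). The latter ratio joins members on opposite sides. *Ttr* was at 1.001 and 4.12 in the controls and 2.49 and 7.37 in the *Rax* iCKO mice, and *Tyr* at 0.480 and 0.555 against 0.988 and 1.001. *Optc*, which encodes a proteoglycan of the vitreous fibril and was the gene under that p, was at 3.51 and 4.42 in the controls and 1.07 and 0.994 in the *Rax* iCKO mice (limma adjusted p = 1), and *Rpe65* did not exceed 0.774 in any library. The study shows *Optc* among its genes, chosen on these same libraries. Astrocyte markers summed to 8.78 to 14.1 (ratio 0.726), with *Pax2* at 0.0381 or less and the rest from *Gfap* and *Pdgfra*. *Gfap*, which the paper takes as a marker of gliosis in Müller glia, was at 4.80 and 8.94 in the controls. In the *Rax* iCKO mice it was at 4.38 and 7.14. Microglial markers summed to 10.2 and 11.6 in the controls, 20.8 in *Rax* iCKO 7983 and 1.98 in *Rax* iCKO 3914 (ratios within pairs 2.04 and 0.170). The part of these lists in the result was not tested.

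*Col9a1* has 2 annotated starts, a distal start for the long transcript and a proximal start for the short transcript, which is the form known from the vitreous, and FPKM per gene do not tell them apart. The 250 bases before each start are shown, because *Col9a1* made most of the summed collagen FPKM and the letters TAATT are the sequence that Rax is predicted to bind. They come from RefSeq (GRCm38.p6), on the plus strand, 5′ to 3′.
*Col9a1* distal, chr1:24177360-24177609: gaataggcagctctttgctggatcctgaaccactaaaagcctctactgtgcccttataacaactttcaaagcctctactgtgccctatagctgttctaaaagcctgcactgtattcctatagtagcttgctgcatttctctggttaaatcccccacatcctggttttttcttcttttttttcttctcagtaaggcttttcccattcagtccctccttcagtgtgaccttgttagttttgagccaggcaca
*Col9a1* proximal, chr1:24194953-24195202: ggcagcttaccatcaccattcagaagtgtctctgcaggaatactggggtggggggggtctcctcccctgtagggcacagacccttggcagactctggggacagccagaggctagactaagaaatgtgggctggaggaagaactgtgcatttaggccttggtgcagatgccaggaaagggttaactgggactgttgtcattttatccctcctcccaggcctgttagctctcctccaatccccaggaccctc
Capitals would mark TAATT or its reverse complement AATTA, which overlap where the letters read TAATTA, and neither window holds them. Of all 32851 promoter windows of this length, 8223 (25%) held the motif on either strand. Of 38 windows for 35 collagen genes, 4 (10.5%) did, those of *Col10a1*, *Col11a2*, *Col17a1* and *Col28a1*. *Col17a1* was the tested gene among them, with the motif at position -33 from its RefSeq start. Of the vitreous genes, *Col9a1*, *Col9a2* and *Col11a1* were searched, and *Col2a1*, *Col9a3* and *Col5a2* were not searched here. The match describes letters in these windows only, which are far shorter than the *Socs3* promoter stretch in which the study predicted its sites.

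Of the 4 basement membrane collagens tested, 2 had fold changes above 0 and 2 below, and none passed the test. The 8 genes of the class summed to 89.5 and 46.9 FPKM in the controls and 74.3 and 48.1 in the *Rax* iCKO mice, a ratio of 0.897 with 0.830 and 1.03 within the pairs. The ratio ran from 0.684 without control 3911 to 1.31 without control 7984. All 4 tested genes were higher in both mice of the run 7983 and 7984 than in both of the other run.

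*Col18a1*, whose C-terminal fragment is endostatin (chromosome 10:77052178-77166548, minus strand), was the highest of the class at 45.0 and 20.4 FPKM in the controls and 28.8 and 18.4 in the *Rax* iCKO mice. The groups overlapped. Limma gave a log2 fold change of -0.38 (SE 0.41, 95% interval -1.39 to 0.62), with -0.63 and -0.14 within the pairs, and 0.17 without control 7984.

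*Col4a1* and *Col4a2* encode the 2 chains of the common type IV molecule and lie head to head on chromosome 8, at 11198423-11312826 on the minus strand and 11312805-11449287 on the plus strand. The annotations of the 2 genes overlap at their starts. Exons of *Col4a2*, *Col5a1* and *Col22a1* also overlap other annotated genes on the opposite strand, so some of their reads are uncertain. *Col4a1* was at 17.0 and 11.7 FPKM in the controls and 19.8 and 13.9 in the *Rax* iCKO mice, and *Col4a2* at 14.4 and 8.32 against 15.6 and 9.82. The groups overlapped for both, with limma log2 fold changes of 0.22 (SE 0.29, 95% interval -0.49 to 0.92) and 0.16 (SE 0.35, 95% interval -0.69 to 1.01). Both were higher in the *Rax* iCKO mouse of each pair, *Col4a1* by 0.21 and 0.23 and *Col4a2* by 0.11 and 0.22. The 2 genes kept a narrow ratio of *Col4a1* to *Col4a2* in the libraries, 1.18 and 1.41 in the controls and 1.27 and 1.42 in the *Rax* iCKO mice.

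*Col4a5* and *Col4a6* are also neighbours head to head, on the X chromosome at 141475385-141689234 and 141165403-141474076. *Col4a5* was at 11.6 and 5.51 FPKM in the controls and 8.89 and 5.59 in the *Rax* iCKO mice, with a limma log2 fold change of -0.16 (SE 0.39, 95% interval -1.13 to 0.80). *Col4a6* had a mean of 0.836 and was not tested. It was at 1.39 and 0.818 in the controls and 0.755 and 0.383 in the *Rax* iCKO mice, all below the controls, with a ratio of 0.516. The *Xist* level differed between the groups in the same libraries, so for these X-linked genes its part and the part of the genotype cannot be told apart. *Col4a5* exceeded *Col4a6* 8.35 and 6.73 times in the controls and 11.8 and 14.6 times in the *Rax* iCKO mice. *Col4a3* and *Col4a4*, the other head-to-head pair, stayed under 0.290 FPKM in every library.

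Vessel cells also make type IV collagen, so their markers were read beside it. Of the 8 pericyte and smooth muscle markers 4 were under 1 in every library and *Pdgfrb* made most of the sum, which was 29.0 and 11.8 FPKM in the controls and 25.7 and 14.4 in the *Rax* iCKO mice (ratio 0.981). Of the 8 endothelial markers, whose sums had a *Rax* iCKO to control ratio of 0.907, *Kdr* was at 228 to 464, *Flt1* at 13.2 to 25.1, *Esam* at 4.18 to 6.36 and *Cldn5* at 0.262 to 1.77, while *Pecam1*, *Cdh5*, *Tek* and *Tie1* did not exceed 0.638 in any library. Pericyte and endothelial sums were both highest in mice 7984 and 7983, as were *Col4a1* and *Col4a2*. The endothelial sum was mostly *Kdr*, which had this order, as did *Flt1*. *Esam* was instead highest in mice 3914 (6.36) and 3911 (5.34), and *Cldn5* in mouse 3911 (1.77). Their part in the type IV levels was not tested.

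Transmembrane collagens were led by *Col23a1* (chromosome 11:51289920-51583918, plus strand), a collagen of the cell surface that can be shed. It was at 141 and 51.8 FPKM in the controls and 106 and 47.1 in the *Rax* iCKO mice, next to *Col2a1* and *Col9a3* in level. The high libraries were those of mice 7984 and 7983, 1 of each genotype, and the groups overlapped. Limma gave a log2 fold change of -0.27 (SE 0.56, 95% interval -1.64 to 1.11), with -0.40 and -0.13 within the pairs. The fold change ran from -0.98 to 0.44 when single libraries were left out. *Col17a1*, a collagen of hemidesmosomes, was at 3.43 and 4.03 in the controls and 4.35 and 2.85 in the *Rax* iCKO mice, with a fold change of -0.05 (SE 0.29, 95% interval -0.77 to 0.66).

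Fibrillar collagens outside the vitreous were low apart from *Col1a2*. Their summed FPKM was 13.2 and 11.4 in the controls and 15.8 and 15.5 in the *Rax* iCKO mice (12.3 ± 1.26 against 15.6 ± 0.187, SD, n = 2 each), a ratio of 1.27, with 1.20 and 1.36 within the pairs. *Col1a2*, the α2 chain of type I collagen (chromosome 6:4504814-4541544), was at 7.88 and 8.97 FPKM in the controls and 10.4 and 11.7 in the *Rax* iCKO mice, all above the controls. Limma gave a log2 fold change of 0.35 (SE 0.23, 95% interval -0.21 to 0.92), with 0.36 and 0.35 within the pairs.

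*Col1a1*, which supplies the other chain of type I collagen, was nearly absent. It was at 0.0698 and 0.0957 FPKM in the controls and 0.118 and 0.0477 in the *Rax* iCKO mice, or 4, 4, 5 and 2 reads by its read steps. *Col1a2* exceeded it 113 and 93.7 times in the controls and 88.1 and 245 times in the *Rax* iCKO mice. The 5 fibroblast markers were under 1 in every library, summed to between 0.0335 and 0.502, and included *Dpt* at 0 in every library. *Col5a1*, which nucleates fibrils, was at 3.46 and 1.35 in the controls and 2.94 and 2.08 in the *Rax* iCKO mice, with a log2 fold change of 0.10 (SE 0.39, 95% interval -0.85 to 1.06).

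*Col6a1* and *Col6a2* encode chains of the type VI beaded filament, which needs the third kind of chain for assembly. *Col6a1* (chromosome 10:76708792-76726168) was at 1.89 and 2.14 FPKM in the controls and 3.03 and 3.98 in the *Rax* iCKO mice. Both *Rax* iCKO libraries lay above both controls, with a ratio of means of 1.74 (2.02 ± 0.175 against 3.50 ± 0.671, SD, n = 2 each). Its log2 fold change of 0.57 (SE 0.28, 95% interval -0.11 to 1.26) did not pass the test. Within pairs the differences were 0.48 and 0.67. *Col6a2* was at 1.76 and 1.37 in the controls and 1.50 and 2.07 in the *Rax* iCKO mice, with a fold change of 0.11 (SE 0.30, 95% interval -0.61 to 0.84). *Col6a1* exceeded *Col6a2* 1.08 and 1.56 times in the controls and 2.02 and 1.92 times in the *Rax* iCKO mice. Genes for the third chain were low, *Col6a3* at 0.116 or less, *Col6a5* at 0.0233 or less and *Col6a6* at 0.257 or less in any library.

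The tested genes of the other FACIT class and *Col8a1* were between 0.493 and 3.27 FPKM. *Col22a1*, a collagen of tissue junctions, was at 3.27 and 1.82 in the controls and 2.34 and 2.19 in the *Rax* iCKO mice (log2 fold change -0.09, SE 0.32, 95% interval -0.87 to 0.69). *Col16a1* was at 2.35 and 1.08 against 1.99 and 0.493 (-0.32, SE 0.45, 95% interval -1.42 to 0.78). *Col20a1* was at 0.767 and 0.702 in the controls and 2.23 and 0.807 in the *Rax* iCKO mice (0.48, SE 0.38, 95% interval -0.44 to 1.40), and its place above the controls rested mostly on mouse 7983, with 0.87 in the first pair and 0.09 in the second. Its other values were under 1, so it reached the limit of testing only through that mouse. Its exons overlap those of another annotated gene on the same strand, so its reads are uncertain. *Col8a1*, of the network under the corneal endothelium, was at 2.24 and 0.943 in the controls and 2.57 and 1.77 in the *Rax* iCKO mice (0.33, SE 0.36, 95% interval -0.56 to 1.21).

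**Figure D3:**
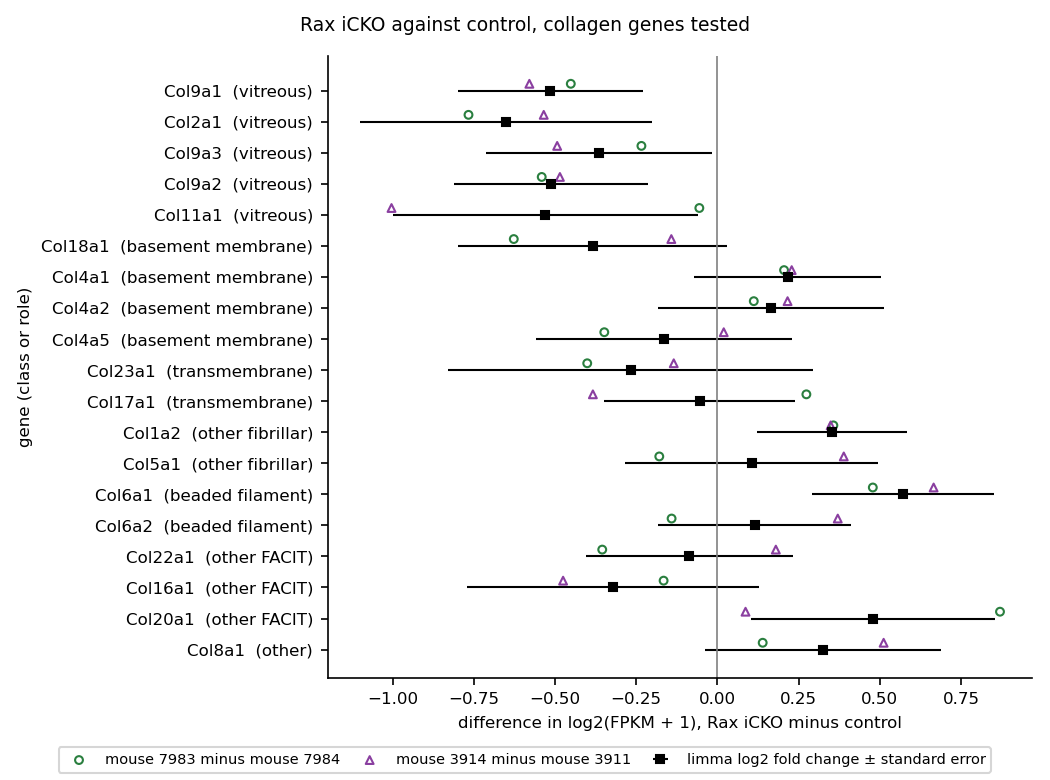
Log2(FPKM + 1) difference, *Rax* iCKO minus control, for the 19 collagen genes tested, with the class in brackets. Squares are limma fold changes with bars of 1 standard error, and open circles and triangles are the differences within mice 7983 and 7984 and within mice 3914 and 3911. Of the 19 genes 8 lie below 0 in all 3 measures, among them the 5 vitreous genes, and 6 lie above 0 in all 3.

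The 22 genes with a mean over 0 and under 1 FPKM got no test. Both *Rax* iCKO libraries lay above both controls for 3 of them, where 10% of the 5502 genes in this range did, and below both for 4, where 15.5% did. For 9 of the 25 genes under 1, small whole read numbers, at most 19 a library, stood in the ratios of the FPKM. They are the smallest that fit, and the larger ones are less sure, since more ratios come close to them.

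*Col7a1*, of the anchoring fibrils of epithelia (chromosome 9:108953586-108984875), was at 0.192 and 0.144 FPKM in the controls and 0.859 and 0.548 in the *Rax* iCKO mice, a ratio of 4.20. The differences within pairs were 0.64 and 0.44 on the log2(FPKM + 1) scale. The study's heat map shows *Col7a1*, chosen on these same libraries, so these values are no independent support. A microRNA gene, *Mir711*, lies in its exons on the same strand. *Col3a1*, a fibrillar partner of type I collagen, was at 0.102 and 0.0803 in the controls and 0.553 and 0.160 in the *Rax* iCKO mice, and its exons overlap *Gm47302* on the same strand, so its reads are uncertain. *Col24a1*, another fibrillar chain, was at 0.0905 and 0.155 in the controls, which fit 8 and 10 reads, and at 0.244 and 0.294 in the *Rax* iCKO mice, which fit 16 and 19 reads.

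Among the low genes below the controls, *Col4a6* is given above. *Col13a1*, a transmembrane collagen of the neuromuscular junction, was at 0.275 and 0.472 FPKM in the controls, at 0.153 in *Rax* iCKO 7983 and listed at 0 in *Rax* iCKO 3914. *Col12a1*, a FACIT, was at 0.109 and 0.112 in the controls (16 and 12 reads) and 0.0368 and 0.0652 in the *Rax* iCKO mice (4 and 7 reads). *Col10a1*, of hypertrophic cartilage, fit 1 read in each control and 0 in each *Rax* iCKO mouse, and its exons overlap *Nt5dc1* on the other strand. It was the gene that the study's kind of rule called lower, with a fit of 1 read in each library above 0. Without the filter, limma gave *Col7a1* a log2 fold change of 0.54 (SE 0.14) and *Col13a1* one of -0.35 (SE 0.13), each past an unadjusted p of 0.05 and each with an adjusted p of 0.995.

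**Figure D4:**
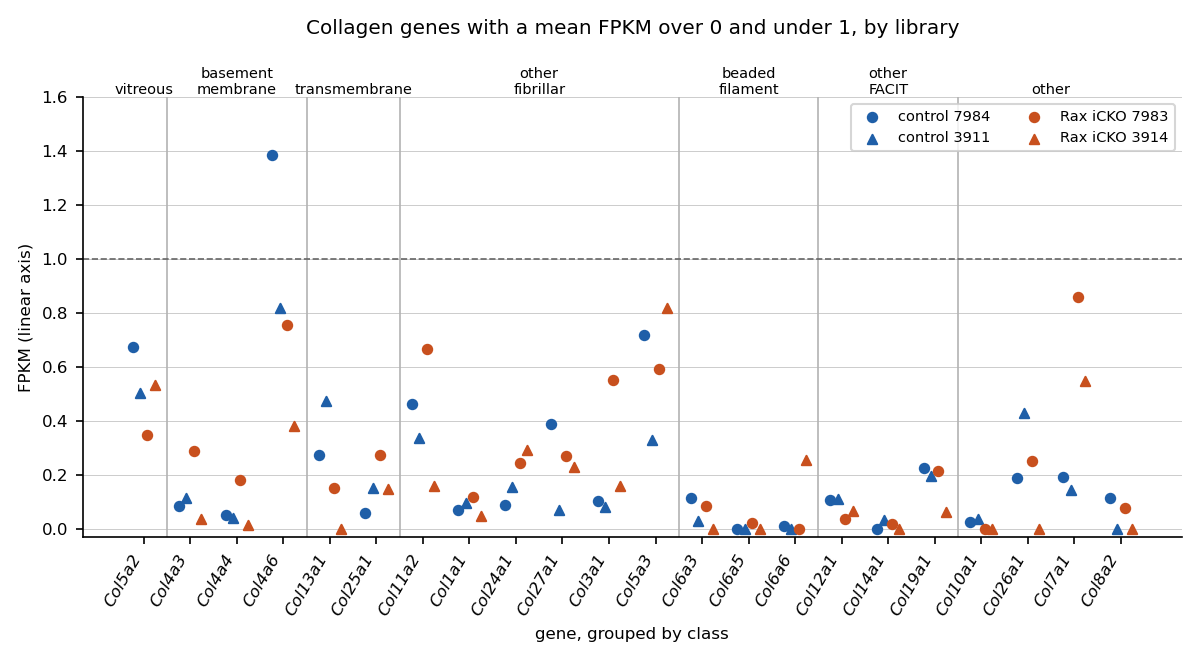
FPKM of the 22 collagen genes with a mean over 0 and under 1 (linear axis), with genes grouped by class and the dashed line at an FPKM of 1. Points are libraries, coloured and shaped as in the plot of the 19 tested genes. *Col7a1*, *Col3a1* and *Col24a1* have both orange points above both blue points, and *Col4a6*, *Col13a1*, *Col12a1* and *Col10a1* have both below.

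Collagen chains are hydroxylated, folded and exported before they are trimmed, crosslinked and bound outside the cell. Of 53 genes listed for these steps 33 were tested, 20 were under 1 and 1 of these, *Mia2*, was listed at 0 in every library. Limma called 0 of the 33 at an adjusted p under 0.05 and 0 at an unadjusted p under 0.05, where 2.86% of all genes passed the latter. The median log2 fold change was -0.16, with 10 above and 23 below 0. Without control 7984 the median was 0.0031, the value of *Ddr1*, so this lean was lost. Both *Rax* iCKO libraries lay above both controls for 3 of the 33 and below both for 8, beside 15.4% and 14.1% of all genes. In both pairs 16 were lower and 6 higher in the *Rax* iCKO mouse, beside 31.7% and 30.7% of all genes. Both mice 7983 and 7984 lay above both of the other run for 17 of the 33 and below for 3, beside 26.8% and 29.1% of all genes.

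By step, the median log2 fold change was -0.12 over 14 hydroxylation and glycosylation genes, -0.24 over 5 folding and export genes, -0.10 over 3 genes of propeptide removal, -0.57 over 3 crosslinking genes, 0.23 over 2 basement membrane partners, -0.39 over 2 receptors and -0.14 over 4 degradation genes. Such medians of few genes moved with single libraries. Without control 7984 the crosslinking median was -0.19 and that of propeptide removal 0.26. Without control 3911 the 2 basement membrane partners lay on opposite sides, *Agrn* at -0.53 and *Nid1* at 0.24. The 6 most abundant were as follows. *Sparc*, a collagen-binding matricellular protein, was at 1408 and 1491 FPKM in the controls and 1112 and 1346 in the *Rax* iCKO mice (-0.24, SE 0.35, 95% interval -1.09 to 0.60). *P4hb*, the β subunit of prolyl 4-hydroxylase, was at 227 and 264 against 195 and 204 (-0.29, SE 0.23, 95% interval -0.86 to 0.27). For these 2 genes the *Rax* iCKO values were lower than either control.

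*Ppib*, a prolyl isomerase of the 3-hydroxylation complex, was at 136 and 214 FPKM in the controls and 117 and 147 in the *Rax* iCKO mice (-0.38, SE 0.30, 95% interval -1.10 to 0.35). *Ddr1*, a collagen receptor kinase, was at 224 and 122 against 152 and 98.6 (-0.43, SE 0.37, 95% interval -1.33 to 0.47). *Timp2*, an inhibitor of matrix metalloproteinases, was at 247 and 122 against 200 and 132, and *Timp3*, another, at 187 and 88.1 against 153 and 83.1, with log2 fold changes of -0.10 (SE 0.40) and -0.18 (SE 0.45). The groups overlapped for these 4 genes. With single libraries left out, the fold changes ran from -0.38 to -0.11 for *Sparc*, -0.40 to -0.19 for *P4hb*, -0.70 to -0.0500 for *Ppib*, -0.86 to 0.0031 for *Ddr1*, -0.61 to 0.41 for *Timp2* and -0.72 to 0.35 for *Timp3*.

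The gene with the smallest p of the list, named after its values were seen, was *Serpinh1*, the collagen chaperone of the endoplasmic reticulum. It was at 60.1 and 29.8 FPKM in the controls and 26.8 and 18.9 in the *Rax* iCKO mice, all below the controls. Its adjusted p depended on whether the run of mouse numbers was fitted as a block, as given in the last section. Its log2 fold change was -0.88 (SE 0.37, 95% interval -1.79 to 0.02, adjusted p 1), with -1.14 and -0.63 within the pairs, -0.39 without control 7984 and -1.38 without control 3911. *P4ha2*, a catalytic subunit of prolyl 4-hydroxylase and likewise named after its values were seen, stood on the other side at 10.5 and 6.37 against 12.2 and 14.5 (0.64, SE 0.29, 95% interval -0.08 to 1.35), with 0.32 without control 3911 and 0.96 without control 7984. *Ddr2*, a receptor of fibrillar collagen shown in the study's heat map, was not tested at 0.466 and 0.346 in the controls and 0.131 and 0.0663 in the *Rax* iCKO mice.

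**Figure D5:**
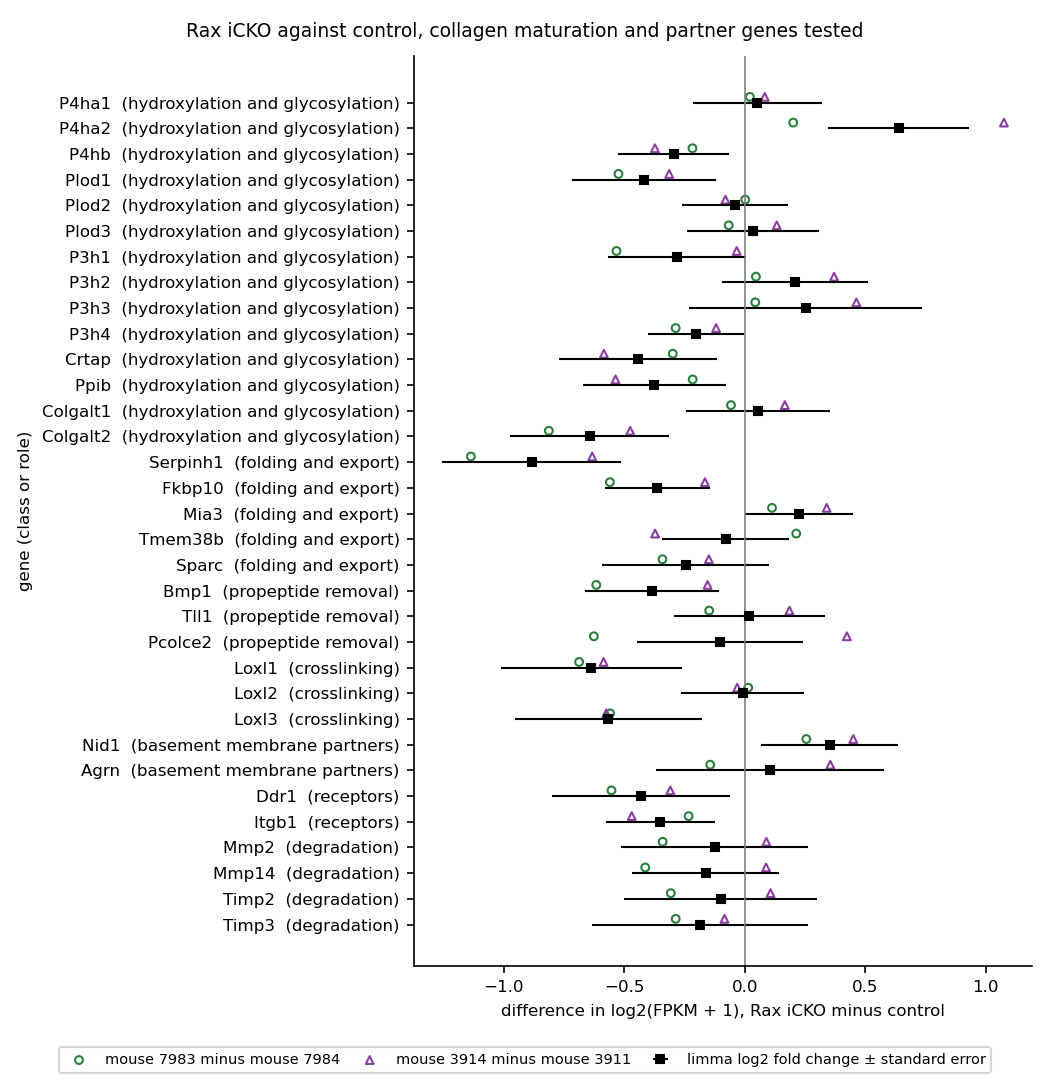
Log2(FPKM + 1) difference, *Rax* iCKO minus control, for the 33 tested genes of collagen maturation, binding and turnover, with the role in brackets. Squares are limma fold changes with bars of 1 standard error, and open circles and triangles are the differences within mice 7983 and 7984 and within mice 3914 and 3911. *Serpinh1* has the lowest square at -0.88 and *P4ha2* the highest at 0.64.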

How the data were processed

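The members and the gene lists were chosen with earlier results of these data known. The authors mapped 101-base single-end reads to mm10 and deposited FPKM per gene and library. The paper names Cufflinks, and the submitters' processing notes list TopHat2 2.1.1, Bowtie2 2.2.8, SAMtools 0.1.18 and Cuffdiff 2.2.1. Labels and paper name different RNA kits. The library kit of the labels does not mark strand, so genes that overlap on opposite strands cannot be told apart. FPKM hold no read totals and were used as deposited.

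Genes whose FPKM averaged 1 or more were tested on log2(FPKM + 1) with limma 3.58.1 (trend, Benjamini-Hochberg over 12363 genes) in R 4.3.3, 2 libraries against 2. The fit was also run on simulated independent values, which lack the difference between runs of mouse numbers seen here. Separate mice make the spread biological and technical together. For members with a mean under 1, the smallest whole reads, up to 20, within 0.5% of the depth-scaled FPKM ratios were sought, as found for 84.7% of 3095 genes with a mean under 0.5. Named were all tested members, low members whose groups did not overlap, X-linked members, *Col7a1*, and of the partner list the 6 most abundant and any at p under 0.05 (there was none). *Serpinh1*, *P4ha2*, *Ddr2* and other low members were named after their values were seen. Coordinates and coding sequences are GENCODE vM21 (GRCm38). Alternatives were a pseudocount of 0.1, no filter, a filter at 5, quantile and median scaling, no variance trend, the mouse-number block, single libraries left out and the study's kind of rule. The within-pair values were added after the data were seen.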

Additional observations from a re-analysis of the deposited data

How the results depend on the processing

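The pseudocount and the quantile and median scaling turned the sign of none of 57 log2 fold changes of the tested collagens. The filters, the variance trend and the block leave a fold change as it is. Of the 57, 7 moved by over 1.5 times. With quantile normalization *Col9a1* went from -0.52 to -0.28 and *Col17a1* from -0.0549 to -0.0964. With a pseudocount of 0.1 *Col11a1* went from -0.53 to -1.23, *Col16a1* from -0.32 to -0.61, *Col20a1* from 0.48 to 0.80, *Col5a1* from 0.10 to 0.18 and *Col8a1* from 0.33 to 0.52. None of 124 values under another setting with all 4 libraries, or of 76 with a library left out, had an adjusted p under 0.05. With a library left out, 20 of the 76 turned, over 13 genes. Their ranges were -1.16 to 0.10 for *Col11a1*, -0.82 to 0.18 for *Col16a1*, -0.29 to 0.18 for *Col17a1*, -0.94 to 0.17 for *Col18a1*, -0.39 to 0.21 for *Col22a1*, -0.98 to 0.44 for *Col23a1*, -0.0347 to 0.47 for *Col4a1*, -0.20 to 0.52 for *Col4a2*, -0.64 to 0.31 for *Col4a5*, -0.36 to 0.57 for *Col5a1*, -0.0330 to 0.26 for *Col6a2*, -0.0431 to 0.69 for *Col8a1* and -0.78 to 0.0502 for *Col9a3*. Without turning, *Col9a2* ran from -0.81 to -0.22, *Col2a1* from -1.20 to -0.0977 and *Col20a1* from 0.0591 to 0.90. The cause was not tested.

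Collagens at an unadjusted p under 0.05 went from 0 higher and 0 lower to 1 and 1 without the filter (*Col7a1* and *Col13a1*, beside 1.42% and 2.07% of all genes) and to 1 and 5 with the replicate block (6.81% and 8.87%). With a library left out, the spread comes from the other group alone and the lone library is assumed to vary like it. In those fits 0 to 3 were lower, *Col2a1*, *Col18a1* and *Col9a2* without control 3911 (2.21% of all genes lower) and *Col11a1* without *Rax* iCKO 7983 (1.42%). Partner genes went from 0 higher and 0 lower to 1 lower without the filter, 1 lower with equal medians (1.65% of all genes) and 1 higher and 11 lower with the block, and with a library left out to 0 to 1 higher (0.469% to 2.48% of all genes) and 0 to 6 lower (0.574% to 2.21%). All genes at an adjusted p under 0.05 went from 1 higher and 2 lower to 0 and 0 without the filter or with a filter at 5, to 2 higher with quantile scaling, 3 higher with equal medians and 24 higher and 47 lower with the block, and with a library left out to 7 to 14 higher and 5 to 12 lower. The ratio of the summed FPKM of the other fibrillar collagens ran from 1.19 to 1.37 with a library left out, and that of the beaded filament collagens from 1.27 to 1.72. The study's kind of rule, as run here, called 1 collagen lower (*Col10a1*) and 0 higher. It did not call *Col7a1*, which the study's heat map shows.

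The replicate block is the run of mouse numbers, and whether it pairs the mice is not given. The deviations of mice 7983 and 7984 from their group means correlated at 0.503 over genes tested. With the block, *Col2a1* (limma adjusted p = 0.0564), *Col9a1* (adjusted p = 0.125), *Col9a2* (adjusted p = 0.129), *Col9a3* (adjusted p = 0.232) and *Col18a1* (adjusted p = 0.284) were lower and *Col6a1* (adjusted p = 0.284) higher at an unadjusted p under 0.05, none of them at an adjusted one, where 15.7% of all genes had a p under 0.05 and 0.574% an adjusted p under it. *Serpinh1* had a limma adjusted p of 0.0348 there. FPKM without read totals give no counting interval.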
